A study of Mus musculus with 6 samples.

Results

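A set of 10 genes that write, copy or erase DNA methylation or write repressive histone marks was followed in mouse tongue: Dnmt1, Uhrf1, Hells, Dnmt3a, Dnmt3b, Tet1, Tet2, Tet3, Suv39h1 and Ezh2. They were taken by name, and a probe counted for a gene when its transcript accession belonged to that gene in RefSeq. All 10 genes were represented, by 17 probes, on arrays that carried probes for 21368 genes with a symbol. The 6 mice were C57Bl6 animals that all carried a doxycycline (DOX)-inducible Dek transgene (iDek), described in the labels as ubiquitous and squamous cell-specific, and their age is not given there. There were 3 untreated mice (no DOX) and 3 mice that had DOX for 2 weeks, with 1 single-colour array of tongue RNA per mouse. Dek is a chromatin protein, and DOX is an antibiotic used as the switch of such transgenes. Since the untreated mice carried the transgene too, and mice without it were not analysed here, an effect of the drug and one of Dek induction cannot be told apart. The series title mentions a carcinogen, which no sample label lists.

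In vertebrate DNA, methyl groups sit mainly on cytosines that precede guanine. After a replication fork has passed, the new strand lacks them, and the copying enzyme Dnmt1 is brought there by Uhrf1, which binds DNA methylated on a single strand and marks histone H3 with ubiquitin. Hells (also called LSH) is a remodeling ATPase of the SNF2 family that opens nucleosomal DNA to methylation. Dnmt3a and Dnmt3b set methyl groups on unmethylated DNA, while the Tet dioxygenases oxidise them, the first step of their removal. Suv39h1 trimethylates H3K9, a lysine of the histone H3 tail, in constitutive heterochromatin, and Ezh2 is the catalytic subunit of Polycomb repressive complex 2, which methylates another lysine of the H3 tail (H3K27).

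Promoter windows are shown for Uhrf1 and Hells, which had the largest differences, and for Ezh2 and Tet2. Ezh2, like Hells, held E2F letters, though another run of them, and Tet2 was lower at both of its probes. The windows come from RefSeq (build GRCm38.p6), run from 250 bases before to 50 bases after a transcript start, and matched all 10 genes with 16 windows. Capitals mark the E2F letters TTTCCCGC or TTTGGCGC and the letters CCAAT, or their reverse complements. E2F factors drive many genes of S phase, and CCAAT is the letter run bound by the factor NF-Y. The second of the 2 Uhrf1 starts is shown.
Uhrf1, chr17:56304063-56304362, plus strand: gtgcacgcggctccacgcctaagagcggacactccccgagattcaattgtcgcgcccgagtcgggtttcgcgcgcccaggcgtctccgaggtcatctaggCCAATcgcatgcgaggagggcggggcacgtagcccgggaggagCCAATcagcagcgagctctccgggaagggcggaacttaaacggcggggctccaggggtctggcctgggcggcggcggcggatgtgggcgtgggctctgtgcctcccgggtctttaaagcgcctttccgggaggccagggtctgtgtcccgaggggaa
Hells, chr19:38930740-38931039, plus strand: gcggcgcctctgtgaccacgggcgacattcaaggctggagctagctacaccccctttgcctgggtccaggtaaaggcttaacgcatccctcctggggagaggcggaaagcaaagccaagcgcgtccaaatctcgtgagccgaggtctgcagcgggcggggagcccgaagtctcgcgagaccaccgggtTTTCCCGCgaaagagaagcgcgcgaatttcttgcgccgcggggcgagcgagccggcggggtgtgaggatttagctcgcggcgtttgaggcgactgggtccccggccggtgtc
Ezh2, chr6:47594981-47595280, minus strand: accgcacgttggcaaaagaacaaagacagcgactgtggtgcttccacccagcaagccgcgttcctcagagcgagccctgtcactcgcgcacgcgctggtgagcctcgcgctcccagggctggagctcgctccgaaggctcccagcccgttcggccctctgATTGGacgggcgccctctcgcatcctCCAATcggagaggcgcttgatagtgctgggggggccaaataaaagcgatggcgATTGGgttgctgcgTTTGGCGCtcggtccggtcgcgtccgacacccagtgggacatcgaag
Tet2, chr3:133544341-133544640, minus strand: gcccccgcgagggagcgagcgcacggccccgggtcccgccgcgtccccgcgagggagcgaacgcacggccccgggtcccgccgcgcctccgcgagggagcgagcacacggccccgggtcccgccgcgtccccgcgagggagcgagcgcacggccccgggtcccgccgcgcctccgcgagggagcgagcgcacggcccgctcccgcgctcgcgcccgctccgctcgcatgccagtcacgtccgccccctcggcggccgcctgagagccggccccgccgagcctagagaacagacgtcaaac
The Hells window held the E2F letters TTTCCCGC 62 bases before the start, on the strand of the gene. In Ezh2 the letters TTTGGCGC began at base 4 after the start, together with 3 CCAAT matches. The same letters as in Ezh2 were in 1 of 3 Dnmt1 windows, which is not shown. Neither Uhrf1 window held E2F letters, but each held CCAAT, at 150 and 107 bases before the start in the one shown. No E2F match overlapped a CCAAT match. Over both strands, 3 of 16 member windows held the E2F letters, against 1.56% of 32851 windows of all genes and 12 of 31 windows of the S phase list described further on. CCAAT occurred in 7 of the 16 and in 37.4% of all windows, and the letters TTTGAA of the cell cycle element CHR in 2 of the 16 and in 17.9% of all. The dinucleotide CG occurred between 2 and 57 times per member window (median 30.5), against a median of 7 over all windows. The window of Tet2 had the 57, a number reached by 0.152% of all windows. A letter match describes the sequence and is no evidence that a factor binds there.

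**Figure D1:**
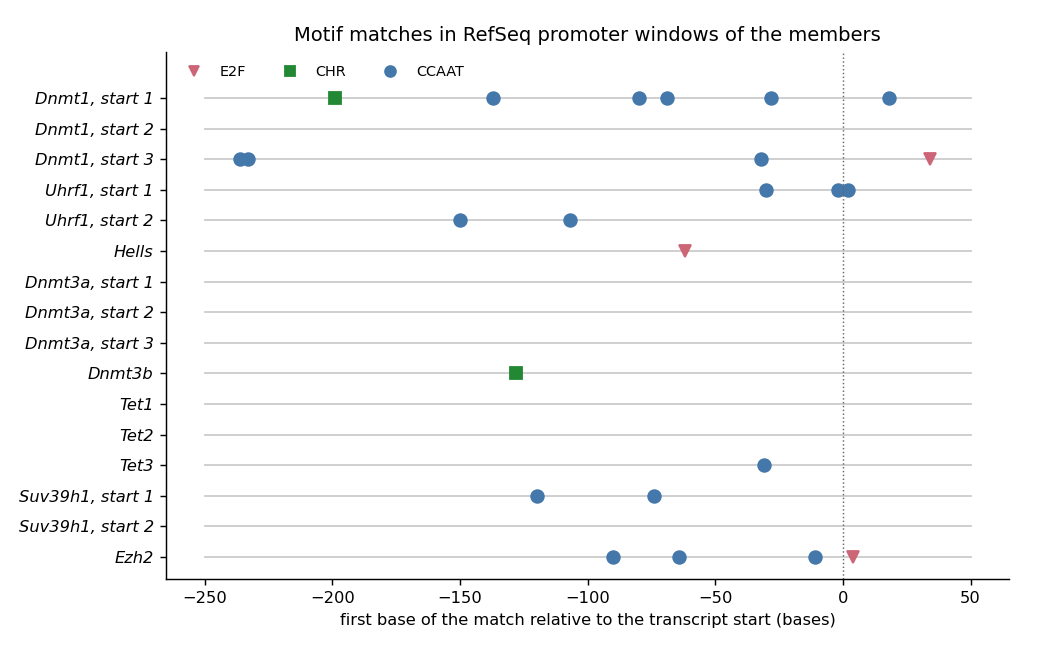
Positions of motif matches in the 16 RefSeq promoter windows of the 10 genes, by distance in bases from the transcript start (dotted line); triangles are E2F letters, squares CHR and circles CCAAT, on either strand. E2F letters appear in 3 windows, those of Dnmt1 (start 3), Hells and Ezh2.

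Signals below are log2 processed signals minus the 75th percentile of their array, so that 0 is that percentile and most probes lie below it. Probes differ in how strongly they bind, so the level of a gene is compared between mice and never with that of another gene. Of the 17 probes, 16 were well above background on all 6 arrays and were tested, and 1 of 2 Uhrf1 probes was not. The brightest probe stood for its gene. Groups were compared with limma over the 30933 probes tested, which stand for 26256 genes and unnamed probes. P-values were adjusted over those probes by the Benjamini-Hochberg method, the threshold was 0.05, and ± after a log2 difference is its standard error (SE). Per the labels each group was 3 mice, and this small number of arrays limits the precision.

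Of 55681 probes, 56.0% to 58.3% were well above background, depending on the array. Dek, read by 1 probe, was at 2.30, 2.10 and 2.20 without DOX and 2.41, 2.41 and 2.27 with DOX, overlapping groups that did not differ past the threshold (log2 0.17 ± 0.11, adjusted p = 0.456). Which stretch of the transcript it reads is unknown from the sources used here, so the value is no check of the transgene. Keratinocyte markers (10 of 10 tested) and skeletal muscle markers (9 of 10) were well above background. Without DOX, Krt13 was at a mean of 9.30 and Acta1 at 8.69. Fibroblast and endothelial markers (10 of 10 each) were well above background too, so detection does not single out tongue. Of the keratinocyte and muscle lists, 0 genes changed at the threshold (limma, 0 and 1 at an unadjusted p under 0.05).

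Of the 10 genes, 1 rose with DOX, 0 fell and 9 did not pass; over all features tested 0.278% rose and 0.126% fell. At an unadjusted p under 0.05, 4 of the 10 were higher and 1 lower, against 4891 of the 26256 features in either direction. The 3 DOX values lay above all 3 values without DOX for 6 genes, against 12.7% of all features, and below them for 1 gene, against 12.6%. The genes did not move as 1 block: those tied to copying methylation at the fork spread from a difference of 0.14 (Dnmt1) to 1.84 (Uhrf1), the enzymes that set new methylation were near 0 or modestly higher, and Tet2 was lower. The median difference was 0.29 over the 10 genes and -0.01 over all features.

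**Figure D2:**
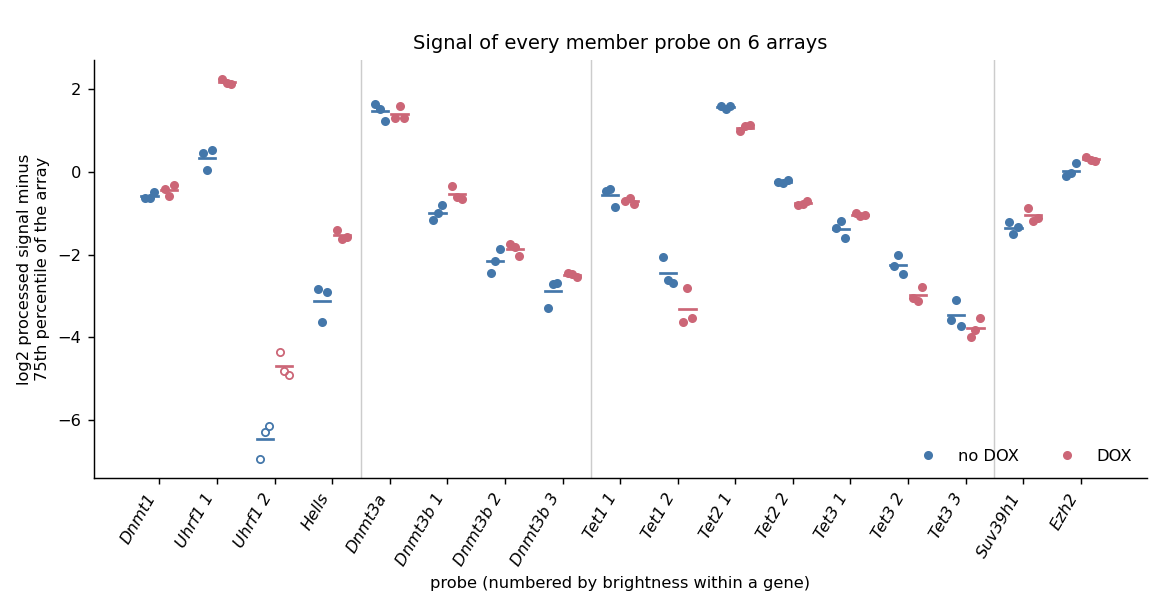
Normalised log2 signal (y axis) of all 17 probes of the 10 genes (x axis), 3 arrays without DOX in blue and 3 with DOX in red; bars are group means and open points the Uhrf1 probe that was not tested. Vertical lines separate maintenance, new methylation, oxidation and histone methylation genes. The group means of Uhrf1 and Hells stand furthest apart. Groups overlap for Dnmt1, Dnmt3a, the brighter Tet1 probe, the Dnmt3b probe of middle brightness and the dimmest Tet3 probe, and not for the others.

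Uhrf1 rose 3.58-fold (95% interval 2.80 to 4.59). Its tested probe (A_55_P2035286) read 0.45, 0.045 and 0.52 in no DOX replicates 1 to 3 and 2.25, 2.15 and 2.14 in DOX replicates 1 to 3. All 3 DOX mice were far above the untreated ones, and no DOX replicate 2 was the lowest. The means were 0.34 ± 0.26 (SD, n = 3) and 2.18 ± 0.063 (SD, n = 3), a log2 difference of 1.84 ± 0.15 (adjusted p = 0.0151). By exact permutation over all 20 ways of assigning the arrays, two-sided, p was 0.1, the smallest that 3 against 3 allows. The call depended on the mice included: the adjusted p was 0.0577 without the untreated mouse 1, 0.0590 without the untreated mouse 2, 0.0639 without DOX replicate 1 and 0.0530 without DOX replicate 3, while the log2 difference stayed between 1.69 and 1.93 over all 6 such fits. With the row of the slide as a block, the log2 difference was 1.91. DOX replicate 1 shared row 1 with the untreated mice, and DOX replicates 2 and 3 were alone in row 2. That fit therefore sets only DOX replicate 1 against the untreated mice. For the other DOX mice, row and treatment cannot be told apart. Without a filter on dim probes, which raises the number of features tested to 48718, the adjusted p was 0.0666.

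The other Uhrf1 probe (A_66_P120074) was assigned through another transcript accession of the gene. In the untreated mice it was never well above background, and in DOX mice it was so only in replicate 1, at -4.37. The other DOX values were -4.82 and -4.90, and the values without DOX lay between -6.96 and -6.16. These dim readings carry no fold, and this probe gives no second measurement of the rise.

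Hells missed the threshold by little, with a log2 difference of 1.59 ± 0.22 (3.00-fold, 95% interval 2.08 to 4.34, adjusted p = 0.0522). It read -2.83, -3.62 and -2.91 without DOX and -1.41, -1.62 and -1.57 with DOX. The groups were clearly apart, and no DOX replicate 2, which was also lowest for Uhrf1, was again the lowest. The size depended on the background step: with normexp, an alternative background correction that damps low signals, the difference was 0.70 and passed (adjusted p = 0.0286). It also passed with median centring, with the filter on all 6 arrays, with trend and robust variance and with array weights, at adjusted p between 0.0392 and 0.0498, and in 0 of the 6 fits that left out an array.

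Dnmt1, the maintenance methyltransferase that Uhrf1 recruits, was measured by 1 probe at -0.64, -0.62 and -0.48 without DOX and -0.42, -0.58 and -0.32 with DOX. The groups overlapped, since DOX replicate 2 lay below no DOX replicate 3. Its difference of 0.14 ± 0.11 did not pass (adjusted p = 0.565), and the 95% interval of the fold ran from 0.911 to 1.33, so a rise of the size seen for Uhrf1 lies outside it.

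Dnmt3a, one of the enzymes for new methylation, was at 1.65, 1.53 and 1.24 without DOX and 1.31, 1.61 and 1.31 with DOX. These ranges overlapped, and the difference of -0.065 ± 0.15 did not pass (95% interval of the fold 0.743 to 1.23). Without no DOX replicate 1 its sign turned, to 0.0235. Dnmt3b, its relative, had 3 tested probes, and all 3 had a higher mean with DOX. The brightest read -1.17, -0.98 and -0.80 without DOX and -0.34, -0.61 and -0.66 with DOX, groups that did not overlap. Its difference of 0.45 ± 0.15 was 1.37-fold and did not pass (adjusted p = 0.185). The other Dnmt3b probes differed by 0.28 ± 0.17 and 0.41 ± 0.18 (0.18 and 0.15 with normexp), and neither passed.

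The Tet genes, whose products oxidise methylated cytosine, had 7 tested probes. Both Tet2 probes were lower in DOX mice, by nearly the same amount. Its brighter probe (A_55_P2081303) read 1.59, 1.52 and 1.60 without DOX and 0.98, 1.11 and 1.12 with DOX. The other (A_55_P2051405) read -0.25, -0.27 and -0.19 without DOX and -0.80, -0.77 and -0.71 with DOX. In both, the 3 DOX mice lay below all 3 untreated mice, and the mice of a group were close together (SD between 0.042 and 0.078). The differences were -0.50 ± 0.099 (1.41-fold lower, adjusted p = 0.0904) and -0.53 ± 0.094 (1.44-fold lower, adjusted p = 0.0792), and neither passed. With normexp both did, at -0.47 (adjusted p = 0.0329) and -0.46 (adjusted p = 0.0395). Both Tet2 probes read the same RNA samples, so they are not independent of each other.

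Tet1 probes differed in size. The brighter one (A_51_P512172) was at -0.46, -0.40 and -0.85 without DOX and -0.69, -0.63 and -0.78 with DOX, overlapping groups with a difference of -0.13 ± 0.15. The dimmer one (A_55_P2122997) was at -2.05, -2.62 and -2.69 without DOX and -3.62, -2.81 and -3.52 with DOX. There the groups did not overlap, but DOX replicate 2 lay close to the untreated mice, and the difference of -0.86 ± 0.27 did not pass (adjusted p = 0.175). With normexp it was -0.33.

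Tet3 probes disagreed in direction. The brightest (A_55_P2175260) was higher with DOX, at -0.995, -1.07 and -1.03 against -1.36, -1.20 and -1.61 (difference 0.35 ± 0.13, adjusted p = 0.225). The next (A_52_P491273) was lower, at -3.04, -3.12 and -2.79 against -2.29, -2.00 and -2.47 (difference -0.73 ± 0.16, adjusted p = 0.101). Each of these had groups that did not overlap, in opposite directions. The dimmest (A_51_P199339) differed by -0.31 ± 0.20 with overlapping groups, and none of the 3 passed. With normexp all 3 were smaller, at 0.20, -0.30 and -0.11. Within each array, the gap between the first and the second probe was 0.92, 0.81 and 0.87 without DOX and 2.04, 2.05 and 1.76 with DOX. That gap was wider by 1.08 on the log2 scale in the DOX mice, and a constant scaling of an array cancels in it. Over all 8 pairs of probes of the same gene, the gap differed without overlap in 3, all of them of Tet3 (exact two-sided permutation p = 0.1 each, 0.267 after adjustment over the 8; 0.1 is the smallest this design allows). These 3 pairs are formed from the same 3 probes, so they are not independent of each other. The share of such pairs over all genes on the array was not worked out, so this count has no background beside it. Taking the mean of the Tet3 probes in place of the brightest turned the gene's difference to -0.23. Where in the transcript each probe lies is unknown from the sources used here, and why the probes differ was not tested.

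**Figure D3:**
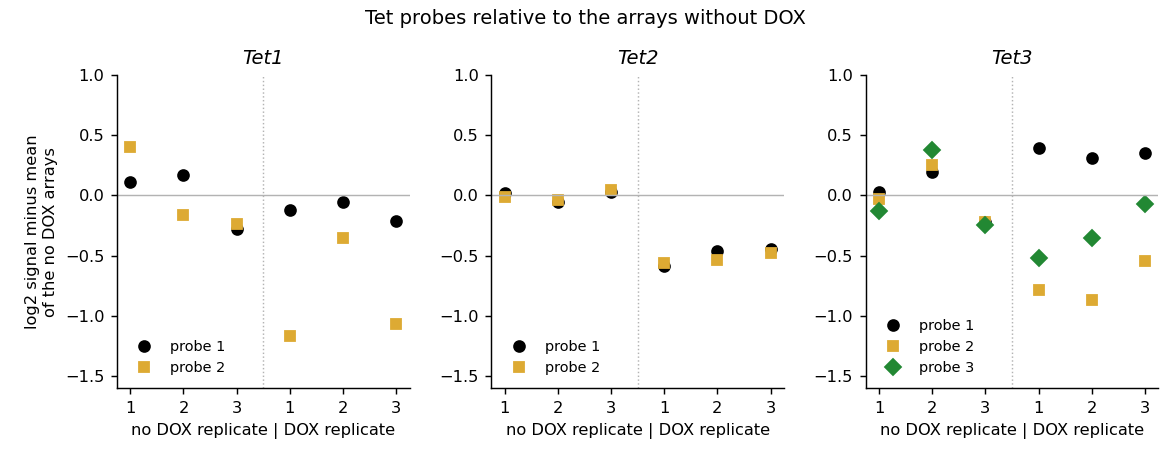
Log2 signal of each Tet1, Tet2 and Tet3 probe minus its own mean over the 3 arrays without DOX (y axis), by array (x axis: no DOX replicates left of the dotted line, DOX replicates right). Both Tet2 probes sit about 0.5 lower in every DOX mouse, while the brightest Tet3 probe (black) is higher and the second (yellow) lower in all 3.

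Suv39h1, the H3K9 methyltransferase gene on the X chromosome, was at -1.22, -1.50 and -1.34 without DOX and -0.86, -1.18 and -1.12 with DOX. Ezh2 was at -0.099, -0.029 and 0.22 without DOX and 0.36, 0.30 and 0.26 with DOX. In both genes all 3 DOX values lay above the values without DOX, by a small margin. Their differences of 0.30 ± 0.13 and 0.27 ± 0.12 did not pass (adjusted p = 0.294 and 0.283; Suv39h1 was at 0.17 with normexp), and the intervals of the fold ran from 0.985 to 1.54 and from 0.991 to 1.47.

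**Figure D4:**
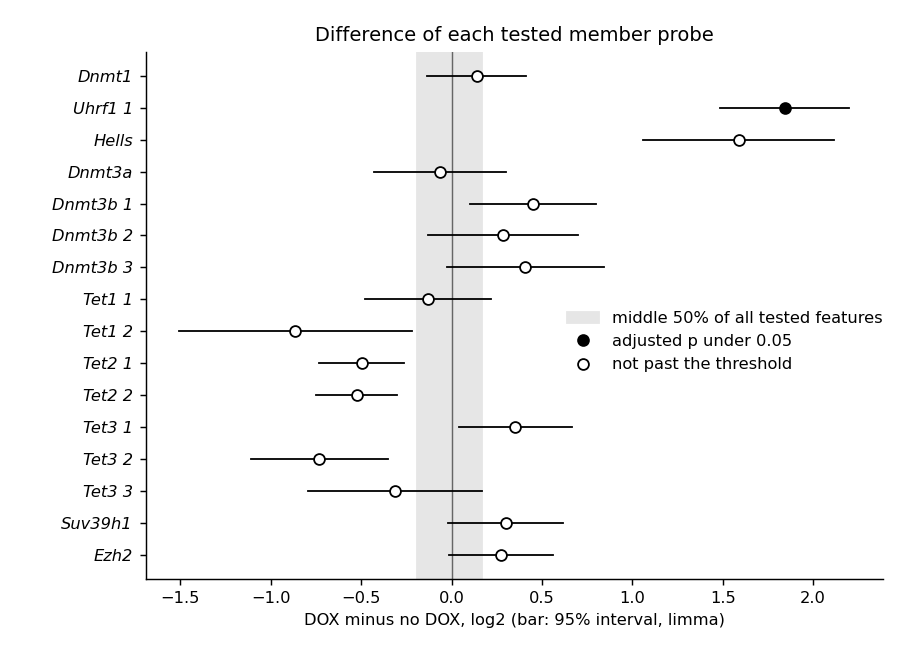
Log2 difference, DOX minus no DOX (x axis), of the 16 tested probes (y axis, numbered by brightness within a gene), with 95% limma intervals; filled points passed an adjusted p of 0.05, and the grey band runs from the lower to the upper quartile of all tested features (-0.19 to 0.17). Uhrf1 alone is filled, Hells has a similar size with a wider interval, and the 3 Tet3 probes lie on both sides of 0.

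The genes around the 10 were read from lists chosen, like the 10 genes, with earlier results of these data known. Over all 26256 features, 4891 had an unadjusted p under 0.05 by limma, 0.278% rose and 0.126% fell. The counts of every list below are to be read beside these shares. Among partners of DNA methylation, 1 of 24 tested genes rose, 0 fell and 23 did not pass, with a median difference of 0.08. The riser was Pcna, the sliding clamp of the fork, at 0.86 ± 0.10 (adjusted p = 0.0359). Lig1, the ligase that joins Okazaki fragments and is bound by Uhrf1, was at 0.65 ± 0.099, Ahcy, which clears the methylation by-product S-adenosylhomocysteine, at 0.49 ± 0.12, and Idh1, which makes the Tet cosubstrate 2-oxoglutarate, at -0.56 ± 0.12. These 3 did not pass. Pcna did not pass either when any 1 of the 6 arrays was left out (adjusted p 0.0681 to 0.164).

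Readers of methylated DNA had 0 of 10 called by limma (2 at an unadjusted p under 0.05, median -0.06), with Mbd5 at -0.59 ± 0.12, Mbd6 at -0.28 ± 0.096, Mbd1 at 0.43 ± 0.18 and Zbtb38 at -0.41 ± 0.19. The other 2 Mbd1 probes were at 0.06 and -0.02. In the list of H3K9 methylation and HP1 (the protein that binds the mark) 1 of 23 rose, 0 fell and 22 did not pass (median -0.03). It was Chaf1b, a subunit of the assembly factor CAF-1 that places histones on new DNA, at 1.39 ± 0.12 (adjusted p = 0.0161), and its other probe also rose, at 1.31. Leaving out any array other than DOX replicate 2 ended its call (adjusted p 0.0530 to 0.0889). Chaf1a, the partner subunit, was at 0.46 ± 0.14, and the H3K9 demethylase genes Kdm3a and Kdm3b were at -0.49 ± 0.11 and -0.53 ± 0.13, none of them past the threshold.

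The complex that holds Ezh2 was mixed. Of 13 other genes of PRC2 and H3K27 methylation, limma called 0 (6 at an unadjusted p under 0.05, median 0.07). Epop, an accessory subunit, was at 1.58 ± 0.28 (adjusted p = 0.0777) and Phf19, a Polycomb-like subunit, at 0.80 ± 0.17 (0.34 with normexp). The cofactor Jarid2 was at -0.48 ± 0.13 and the H3K27 demethylase gene Kdm6a at -0.51 ± 0.11. Of 18 genes of the partner complex PRC1, limma called 0 (3 at an unadjusted p under 0.05, median 0.06; Phc3 -0.39 ± 0.10, Yaf2 0.35 ± 0.10, Phc1 0.37 ± 0.12, Pcgf6 0.37 ± 0.18). Of 5 genes of H4K20 methylation, a mark on histone H4, limma called 0 (3 at an unadjusted p under 0.05), with Kmt5b at -0.38 ± 0.10, Kmt5c at -0.44 ± 0.13, L3mbtl2 at 0.30 ± 0.12 and L3mbtl3 at 0.04 ± 0.11. Among 17 SNF2 relatives of Hells, 1 rose, 0 fell and 16 did not pass (median 0.01). That was Rad54l, a recombination motor, at 1.30 ± 0.13 (adjusted p = 0.0231), which did not pass when any 1 array was left out (0.0588 to 0.0915) and was at 0.53 with normexp. Ercc6 (0.41 ± 0.11), Smarca5 (0.33 ± 0.092) and Smarca1 (-0.96 ± 0.31) did not pass.

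Genes of S phase were the list that the Uhrf1 and Hells values lay among. Of 34 tested, 17 rose, 0 fell and 17 did not pass, where 0.278% of all features rose and 0.126% fell. The median was 0.85 (quartiles 0.59 and 1.35). Dtl, which directs Cdt1 to degradation, rose by 2.01 ± 0.12 (1.07 with normexp), the helicase subunit gene Mcm5 by 1.89 ± 0.13, the licensing factor gene Cdt1 by 1.67 ± 0.13 and the polymerase gene Pole by 1.30 ± 0.10. The number that rose depended on every mouse, while the direction did not: 0 rose when no DOX replicate 1 or 2 was dropped from the fit, 2 when no DOX replicate 3 or DOX replicate 1 was, 10 for DOX replicate 2 and 3 for DOX replicate 3, with 32 or 33 genes at an unadjusted p under 0.05 and a median of 0.80 to 0.91. It was 3 with the slide row as a block, 0 without the filter on dim probes and 0 with the replicate number as a block, which did not pair the mice. The mean signal of this list was -0.04, -0.18 and -0.03 without DOX and 0.96, 0.86 and 0.88 with DOX. No DOX replicate 2 was lowest and DOX replicate 1 highest. Uhrf1 and Hells had the same lowest and highest arrays, with the arrays between in other orders. The means of the PRC1 list had them too, although its groups overlapped. In the G2 and mitosis list limma called 0 of 25 (4 at an unadjusted p under 0.05, median 0.01), with Bub1 at 0.68 ± 0.20, Cenpa at -0.84 ± 0.27, Cenpe at -0.68 ± 0.23 and Cdk1 at 0.61 ± 0.24. Its mean was 0.16, 0.02 and 0.66 without DOX and 0.41, 0.48 and -0.13 with DOX, overlapping groups. In whole tissue, a change in the number of cells of a type and a change in RNA per cell cannot be told apart.

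**Figure D5:**
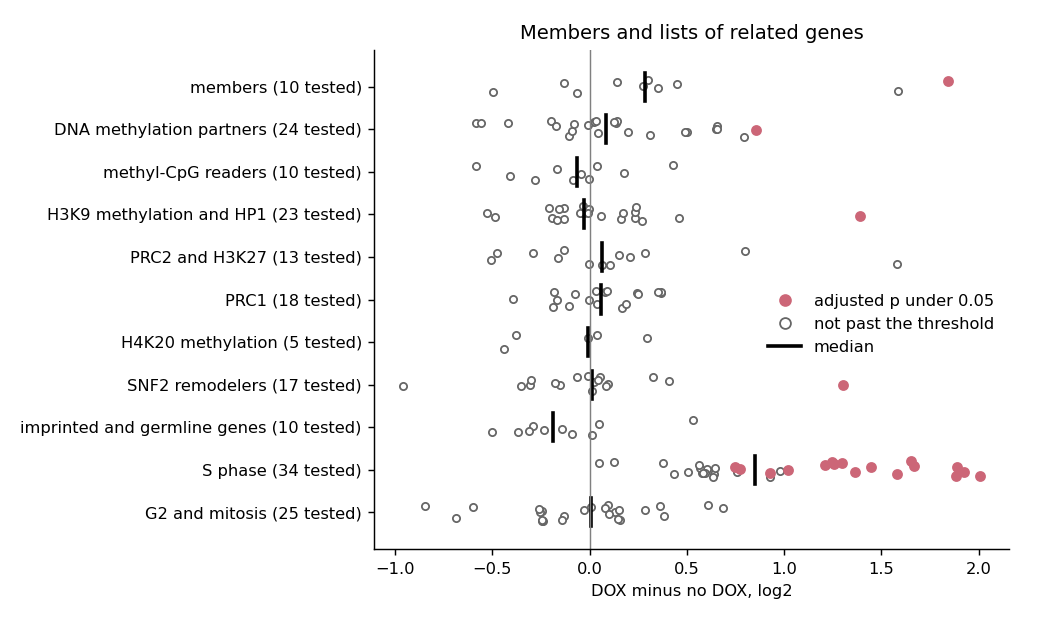
Log2 difference, DOX minus no DOX (x axis), of each tested gene in the 10 members and 10 lists of related genes (y axis); red points passed an adjusted p of 0.05 and black bars are medians. Of the 10 related lists, that of S phase holds 17 red points, those of DNA methylation partners, H3K9 methylation and SNF2 remodelers 1 each, and the others none.

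In 3 lists of markers of other cells, the mean signals did not overlap between the groups. The summed levels did overlap in the B and plasma cell list and in the macrophage list. Car6 (salivary gland) and Fcgr1 (macrophage) were tested only through the DOX arrays. Each was well above background on only 2 of the 3 arrays without DOX. Mean signals of salivary gland markers ran from 2.26 to 4.06 without DOX and from 5.20 to 5.70 with DOX (5 of 8 tested were higher). The summed log2 level ran from 10.7 to 10.8 and from 10.8 to 11.04. The largest differences were those of Bpifa2 (6.51) and Car6 (4.16), while Muc5b (-0.28), Aqp5 (-0.98) and Dcpp1 (-0.76) were lower. B and plasma cell markers ran from -1.04 to -0.66 and from -0.55 to -0.19 (4 of 6 higher). Their summed level ran from 5.78 to 6.19 and from 6.15 to 6.31. The largest difference was that of Derl3 (2.36), while Cd79b (-0.85) and Cd22 (-0.29) were lower, with no overlap of the groups. Cd79a, Ms4a1 and Pax5 were among those not tested. Macrophage markers ran from 0.41 to 0.67 and from 0.73 to 1.20 (7 of 9 higher; summed level 5.32 to 5.45 and 5.26 to 5.63; Cd163 was not tested). None of the genes in these 3 lists passed the threshold (limma; 6, 4 and 3 at an unadjusted p under 0.05), and their part in the Uhrf1, Hells and Tet2 values was not tested. Means of T and NK cell markers met at about -0.28 (-0.28 to -0.04 without DOX, -0.71 to -0.28 with DOX; 7 of 8 lower; summed level 3.65 to 3.79 and 3.62 to 3.80; Trac and Gzmb were not tested). Among them Cd8a was called lower (limma, adjusted p = 0.0241) but was not well above background on any of the 3 DOX arrays. It was tested only through the arrays without DOX, and its dim DOX readings carry no fold. With normexp, and with the filter on all 6 arrays, 0 genes of this list were called. Means of keratinocyte, muscle, fibroblast, endothelial and erythroid markers overlapped between the groups.

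Over the 6 arrays, the genes whose signal ran most like Uhrf1 were Gins2, Rrm2 and Tmem33 (Pearson r = 0.998 each, among 14422 genes). Gins2 encodes a subunit of the replicative helicase and Rrm2 a subunit of ribonucleotide reductase, and both rose (limma, adjusted p = 0.0327 and 0.0151). Tmem33 did not pass (limma, adjusted p = 0.0944). The genes most like Hells were Ppp1r11 (0.999), Aunip (0.996) and the histone gene H2ac4 (0.995). Those most like Tet2 were Wdr81 (0.997), Arid1b (0.996) and Scaper (0.996). None of the genes named for Hells and Tet2 passed. All points come from 2 groups of 3 arrays, so any gene that differs between the groups in a similar way scores high: 277, 202 and 217 genes had r over 0.95 with Uhrf1, Hells and Tet2.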

How the data were processed

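Cy3-labelled cRNA of 6 tongue samples was read on Agilent SurePrint G3 mouse arrays, per the labels' protocols. Per the file headers, Agilent Feature Extraction 11.5.1.1 wrote the deposited linear intensity of each spot, after subtracting background. The deposited value table is the same intensity times 1 factor per array (3.70 to 3.99); its column medians were 102.5, 94.2 and 92.7 (no DOX) and 90.01, 97.5 and 93.7 (DOX), and how the factors were set is unknown from the sources used here. All arrays lay on 1 slide with 1 scan, no DOX replicates 1 to 3 and DOX replicate 1 in row 1. DOX replicates 2 and 3 were in row 2, so fits with the row as a block set only DOX replicate 1 against the untreated mice.

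Outlier spots (146 to 195 per array) were left out, log2 processed signals of a probe's spots averaged, and each array's 75th percentile subtracted. Accessions were named through RefSeq (GRCm38.p6): 28331 of 55681 probes had 1 symbol and 27350 none. Probes well above background on all 3 arrays of a group (30933) were fitted with limma 3.58.1 in R 4.3.3 (lmFit, eBayes, two-sided), with Benjamini-Hochberg adjustment over those probes; the script was tested on simulated data. The array annotation is of another build (mm9), so no coordinates were taken from it. Those printed with the promoter windows are of GRCm38.p6. All 10 members were described, with up to 4 genes of smallest p from each related list and the 3 most alike genes for the 3 members of smallest p; the members and lists were chosen with earlier results of these data known. Alternatives were normexp (on median signals), quantile normalization, median centring, the value table, 2 other filters, trend and robust variance, array weights, blocks for replicate number and slide row, the mean of a gene's probes, a threshold of 0.10, and each array left out in turn.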

Additional observations from a re-analysis of the deposited data

How the results depend on the processing

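The number of the 10 genes called was 1 as reported. It was 3 with normexp (Uhrf1, Hells and Tet2) and 3 at a threshold of 0.10 (the same genes), 2 with median centring, the filter on all 6 arrays, trend and robust variance, or array weights (Uhrf1 and Hells), and 0 without a filter, with the slide row as a block or with the replicate block; leaving out 1 array gave 0 to 1. The count over all features, 106 as reported, was 246 with normexp, 192 with trend and robust variance, 273 with array weights, 747 at a threshold of 0.10, 32 with the slide row as a block, 1 without a filter and 0 with the replicate block, and 3 to 51 with 1 array left out. With limma, 5 of the 10 genes had an unadjusted p under 0.05 in each of the 3 fits that called 0 of them with all arrays in, as had 4732 features with the replicate block; no other tool was run.

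Replicate numbers did not pair the samples: deviations of same-numbered arrays from their group means correlated at -0.115, -0.0092 and 0.0102. With the replicate block the adjusted p of Uhrf1 was 0.0985 at the same difference of 1.84.

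Of 170 refits of the 10 genes, 155 kept direction and side of the threshold, 7 lost the call, 6 gained it and 2 turned sign: Dnmt3a without no DOX replicate 1 (0.0235; -0.1831 to 0.0235 over the 6 fits that leave out an array) and Tet3 with the mean of its probes (-0.23). Among 697 refits of the other named genes 640 kept both, 50 lost the call, 4 gained it and 3 turned: Mbd1 without DOX replicate 1 (-0.0395 to 0.5215 over such fits), and L3mbtl3 with the slide row as a block (-0.0003) and without DOX replicate 3 (-0.0401 to 0.1006). The cause was not tested. With normexp the differences of Hells, Suv39h1, both Tet1 probes, all 3 Tet3 probes and the 2 dimmer Dnmt3b probes shrank by over 1.5 times, as did those of Rad54l, Dtl and Phf19 among other named genes, so the sizes of these differences depend on the background correction.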

Other observations

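In a list of imprinted and germline genes, those not tested were mainly germline genes. Of 25 genes of the list with a probe, 10 were tested, against 15210 of 21368 genes with a symbol. The others, among them the germline genes Dazl, Ddx4, Mael, Stk31 and Tdrd1, were not well above background on all arrays of either group. Of the imprinted genes, Igf2, Zim1 and Nnat were not tested, while H19, Peg3, Mest, Snrpn, Plagl1, Cdkn1c and Igf2r were. Limma called 0 of the 10 (3 at an unadjusted p under 0.05). Mean signals of 3 genes were higher in DOX mice and those of 7 lower, with a median difference of -0.19. The imprinted growth regulator genes Plagl1 and Igf2r were at -0.50 ± 0.16 and -0.23 ± 0.11, the imprinted cell cycle inhibitor gene Cdkn1c was at 0.53 ± 0.17 and Taf7l at -0.37 ± 0.10, none of them past the threshold. All 4 tested Plagl1 probes were lower, between -0.54 and -0.35. Expression does not measure methylation, and none was measured here.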
